A study of Mus musculus with 30 samples.

Results

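Mouse brain tumors that followed injection of a GFAP-CRE construct into the cortex were compared with normal mouse cortex. The comparison used 8 of the 30 arrays of the series, 4 labelled GFAP cortex tumor and 4 labelled normal cortex, and was chosen by those labels alone. Over all 30 arrays, 19938 genes with a probe set naming 1 gene symbol were measured. GFAP is the gene of an intermediate filament of astrocytes, so its promoter drives Cre recombinase in astrocytes and in other cells that use it. The other 22 arrays hold SYN1 cortex tumors, GFAP and NES hippocampus tumors, GFAP tumors of the subventricular zone and normal hippocampus. The series title describes the tumors as transduced mouse glioblastomas. The cargo of the vector, the alleles and strain of the mice, their age and the number of animals are not given in the sources used here. Whether each array is an animal of its own is not given either, so the p-values reflect only how these samples spread, and that spread may be technical. Each value below is a log2 signal, which includes background, so that a low value does not show absence. With 4 arrays a group, their number limits the precision.

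Glioblastoma is a tumor of glial character that combines division, invasion along the matrix of the brain, altered vessels and a dense infiltrate of microglia and blood-borne macrophages. Growth factor receptors feed the RAS and ERK cascade, whose targets include phosphatases and Sprouty proteins that damp it, while the RB pathway gates entry into S phase. In cortex, the displaced tissue is rich in synapses, in projection neurons and interneurons, and in genes that neuronal activity switches on within minutes.

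The normal arrays carried the cortical markers fixed for the check. Tbr1, a transcription factor of deep cortical layers, lay at 10.67 to 11, and Slc17a7, the vesicular glutamate transporter of cortical projection neurons, at 12.74 to 13.04. The hippocampal markers Prox1, Lct and Fibcd1 were at 7.80 to 7.99, 6.82 to 6.96 and 7.16 to 7.51 in normal cortex, below their levels of 9.84 to 10.24, 8.91 to 9.26 and 9.13 to 9.43 in normal hippocampus. The striatal markers did not read alike in the 4 normal arrays. Drd2, a dopamine receptor of striatal neurons, was at 7.25, 9.97, 7.41 and 8.24 in tumors 1 to 4, against 7.73, 7.87, 10.60 and 9.87 in normal cortex 1 to 4. Normal cortex 3 and 4, and tumor 2, were the high arrays, and Drd1 and Gpr6 had the same 3 arrays highest. Their part in the results was not tested.

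Tumor 1 stood apart from the other 3 tumors. Its interquartile range over genes was 1.88, against 2.74 to 2.81 in tumors 2 to 4, 2.72 to 2.81 in normal cortex and 2.18 to 3.03 in the other 22 arrays. Its mean correlation with the other tumors of its group was 0.868, against 0.925 to 0.948 for tumors 2 to 4. The 8 genes in which it lay farthest above the other tumors were Krt5, Krt14, Krt15, Krt10, Trim29, Sfrp2, Mfap5 and Gzmd. The keratins are structural proteins of stratified epithelium. Krt5 was at 11.53 in tumor 1 and at 6.19 to 6.27 in tumors 2 to 4, against 6.21 to 6.51 in normal cortex. The 8 genes in which it lay farthest below were Scg3, Rtn1, Fam107a, Plekhb1, Scn2a, Fabp7, Syt1 and Gpm6a, genes of neurons and glia. Scg3, a secretory granule protein, was at 5.63 in tumor 1 and at 10.76 to 11.41 in tumors 2 to 4, against 11.47 to 11.55 in normal cortex.

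Marker lists added after these values were seen described the same array. They hold genes named above because tumor 1 lay farthest from the other tumors, so part of what follows was fixed by that choice. These are Krt5, Krt14, Krt15, Krt10 and Trim29 of squamous epithelium, Mfap5 and Sfrp2 of dermal fibroblasts, and Syt1 of brain identity. The mean level of 16 genes of squamous epithelium was 9.44 in tumor 1 and 6.52 to 6.58 in tumors 2 to 4, against 6.59 to 6.70 in normal cortex, and all 16 were higher in tumor 1 than in each of the other 29 arrays. The mean of 9 dermal fibroblast genes was 10.7 in tumor 1 and 7.52 to 8.08 in tumors 2 to 4, against 7.06 to 7.20 in normal cortex, and all 9 were highest in tumor 1. Skeletal muscle genes, 8 in number, averaged 8.44 in tumor 1, 7.95 in tumor 4 and 6.71 to 6.77 in tumors 2 and 3, against 6.83 to 7.0 in normal cortex. Brain identity genes averaged 7.80 in tumor 1 and 10.2 to 11 in tumors 2 to 4, against 11.5 to 11.7 in normal cortex, and 9 of the 11 were lower in tumor 1 than in each of the other 29 arrays. In bulk tissue, fewer cells of a type and less RNA per cell cannot be told apart. Counts of genes and of list members are therefore given with and without tumor 1. Differences of single genes include tumor 1 unless stated otherwise. Of the 262 genes named, 18 lost their call in the tumor and normal cortex comparison when tumor 1 was left out, and not all are marked below.

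**Figure D1:**
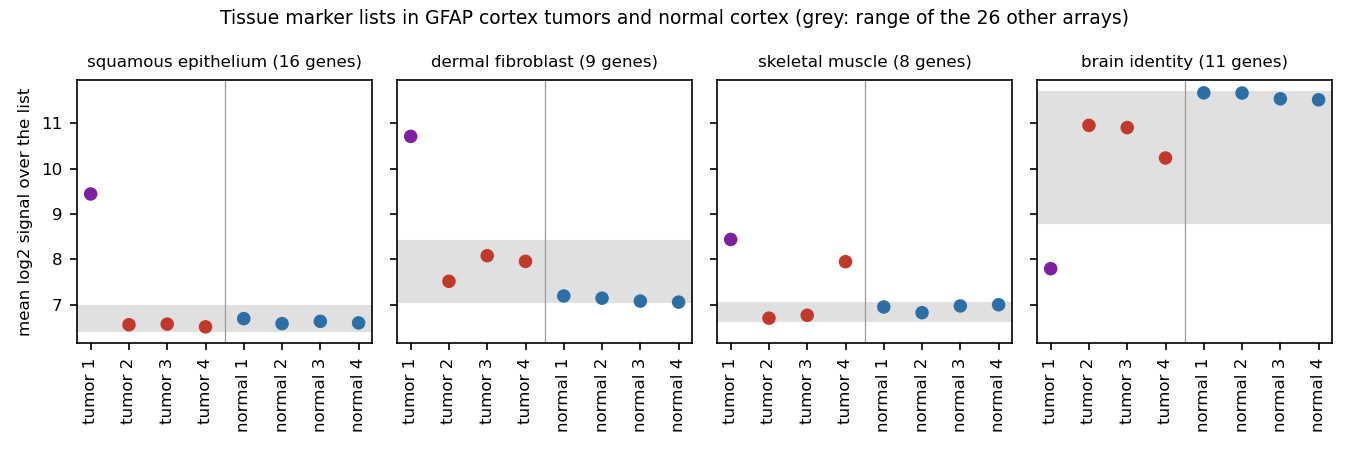
Mean log2 signal (vertical axis) of the 4 marker lists by array, the 4 GFAP cortex tumors on the left of each panel and the 4 normal cortex arrays on the right, with the range of the 26 arrays other than the 4 GFAP cortex tumors in grey. Tumor 1 (purple) lies at 9.44 for squamous epithelium and 10.7 for dermal fibroblast genes, above the grey range, and at 7.80 for brain identity genes, below it.

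A list of 4 sex-linked genes was read as well. Xist, expressed from the inactive X chromosome, was at 5.31 to 6.11 in the 4 tumors, against 11.17, 5.96, 5.83 and 5.49 in normal cortex 1 to 4, and the Y-linked Eif2s3y was at 8.69 to 9.57 in the tumors and at 4.75 in normal cortex 1. Normal cortex 1 thus differed from the 7 other arrays in both genes.

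With all 8 arrays, 1794 genes (9.0%) were higher and 3742 (18.8%) lower in tumors than in normal cortex at a limma adjusted p under 0.05. Without tumor 1 the counts were 1634 higher (8.2%) and 2635 lower (13.2%). These shares of all genes are the ones to set beside the list counts below. In both fits 1481 genes (7.43%) were called higher and 2354 (11.8%) lower, and no gene was called in opposite directions. With quantile normalized arrays the split was 2831 higher and 3255 lower. Leaving out tumor 1 changed the size of the losses more than that of the gains. At least 4-fold changes numbered 267 higher (1.34%) and 314 lower (1.57%) with all arrays, and 278 higher (1.39%) and 39 lower (0.196%) without tumor 1.

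The calls differed with the level in normal cortex. When genes were cut into 5 bins of equal size by their normal signal, the highest bin held many losses. The same normal arrays set the bins and enter the difference, so some tilt to losses in the highest bin and to gains in the lowest arises by construction. The lists below were not matched for level. In that bin 99 were higher and 1983 lower with tumor 1, and 97 higher and 1252 lower without it. In the lowest bin 212 were higher and 48 lower with tumor 1, and 178 higher and 180 lower without it. In the highest bin the median gene of tumor 1 lay 1.43 log2 units below the normal mean, and the median gene of tumors 2 to 4 lay 0.43 below it, given as -1.43 and -0.43. In the lowest bin tumor 1 lay 0.35 above and tumors 2 to 4 lay below, at -0.19. The median log2 difference over all genes was -0.10 with tumor 1 and -0.14 without it. Centring each array on its median moved the second of these to -0.27.

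**Figure D2:**
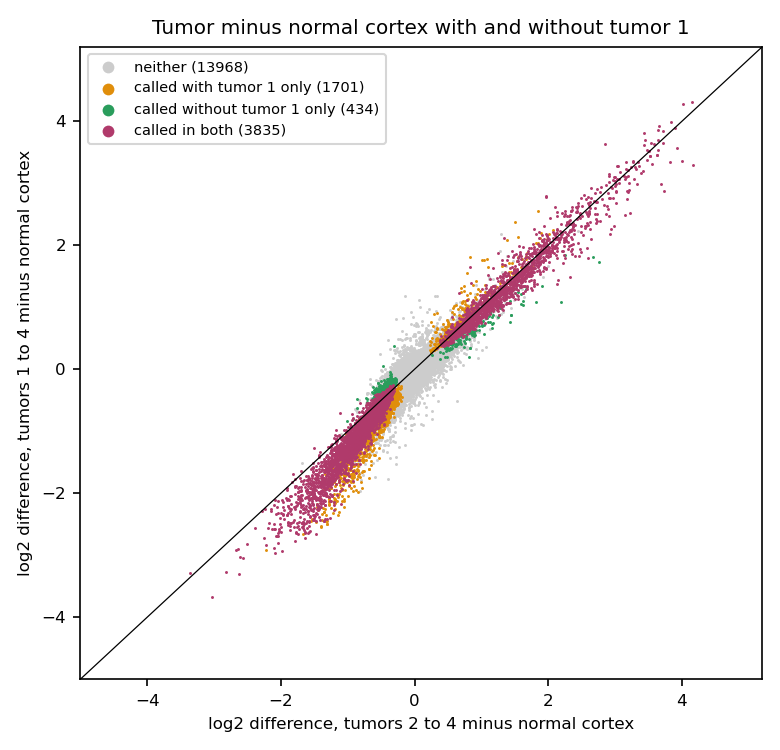
Log2 difference of GFAP cortex tumors minus normal cortex for each of 19938 genes, from tumors 2 to 4 (horizontal axis) and from tumors 1 to 4 (vertical axis), coloured by where the gene was called. The 3835 genes called in both fits lie along the line of equality above 0 and under it below 0, where the 1701 genes called only with tumor 1 also gather.

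Ordered by the difference without tumor 1, the 15 genes with the largest gains that kept all 4 tumors above all 4 normal arrays, as 13.3% of all genes did, included several known from macrophages and from the matrix. Gpnmb, a membrane glycoprotein of phagocytic macrophages and microglia, read 9.82, 10.68, 11.58 and 11.42 in tumors 1 to 4, against 6.86, 7.74, 6.93 and 7.67 in normal cortex 1 to 4. Tumor 1 was the lowest of the tumors and still above every normal array. Its log2 difference was 3.58 ± 0.43 (SE, n = 4 each, limma adjusted p = 5.1e-06), and 3.93 without tumor 1. Cxcl13, a chemokine that draws B cells, read 8.77, 9.94, 11.32 and 10.74 in tumors, against 6.53, 7.40, 6.47 and 6.96 in normal cortex. It was again lowest in tumor 1, with a difference of 3.35 ± 0.75 (limma adjusted p = 0.0019) and 3.82 without that array.

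Among other myeloid genes of this set, tumor 2 was the lowest tumor in Lyz2, Ms4a6d and Lilr4b, and tumor 1 in Ms4a6c. Lyz2, the lysozyme of myeloid cells, was at 11.55, 11.19, 12 and 12.38 in tumors, against 7.80, 8.53, 7.43 and 8.77 in normal cortex (difference 3.64 ± 0.42, limma adjusted p = 3.6e-06). Ms4a6c and Ms4a6d, membrane proteins of myeloid cells, rose by 3.45 ± 0.44 and 3.46 ± 0.55, and Lilr4b, an inhibitory receptor of myeloid cells, by 3.70 ± 0.54. Ifi205, an interferon-inducible gene, rose by 3.93 ± 0.83, with tumor 2 the lowest of the tumors at 8.35. That tumors and normal arrays do not overlap in these genes follows from how the 15 were chosen.

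Fndc3c1 and Crabp1 had larger SEs than the risen genes given above. These SEs come from the fit over all arrays of the series, so they do not rank the spread of the arrays listed here. Fndc3c1 was at 7.53, 9.73, 9.55 and 11.04 in tumors, against 5.52, 6.31, 5.57 and 7.01 in normal cortex, a difference of 3.36 ± 1.01 (limma adjusted p = 0.013). Tumor 1 lay just above normal cortex 4 in that gene. Crabp1, a binding protein for retinoic acid, was at 12.37, 12.50, 13.04 and 12.93 in tumors, against 8.22, 9.87, 8.35 and 10.27 in normal cortex (difference 3.53 ± 0.95, limma adjusted p = 0.0066). Its normal values fell into a higher and a lower pair. The remaining genes with the largest gains were Timp1, Tnc, Emp1, Anxa1, Thbs1 and S100a6, with differences of 3.84 to 4.32.

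Normal cortex 2 and 4 held the 2 highest normal values in all 15 of these risen genes. The same pair was highest in 30.5% of the 1481 genes called higher in both fits, in 5.31% of the 2354 called lower and in 10.6% of all genes. For Timp1, an inhibitor of matrix proteases, the values were 12.27, 10.96, 11.54 and 12.29 in tumors, against 6.37, 8.05, 6.63 and 8.73 in normal cortex. Normal cortex 2 and 4 were thus nearer to the tumors than normal cortex 1 and 3 were.

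The 15 largest losses, chosen in the same way from the 23.9% of genes with all tumors below all normal arrays, included receptors, channels and peptides of neurons. Cckbr, a receptor for cholecystokinin and gastrin, was at 6.64, 8.47, 7.28 and 7.37 in tumors, against 10.62, 10.37, 10.26 and 10.14 in normal cortex. Its difference was -2.91 ± 0.32 (limma adjusted p = 2.3e-06), and -2.64 without tumor 1. Hs3st2, a brain heparan sulfate sulfotransferase, was at 6.70, 8.54, 7.11 and 8.12 in tumors, against 10.61, 10.15, 10.50 and 10.48 in normal cortex (difference -2.82 ± 0.33, limma adjusted p = 4.2e-06). In both genes tumor 1 was the lowest tumor and tumor 2 the highest.

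Pcsk1, a convertase that cleaves prohormones in neurons, fell by 2.56 on the log2 scale and by 2.20 without tumor 1. Diras2, a small GTPase of brain, fell by 2.72, and by 2.25 without tumor 1. Myl4, a myosin light chain, was at 7.86, 8.37, 7.36 and 7.97 in tumors, against 10.63, 9.99, 9.90 and 10.04 in normal cortex. Its difference of -2.25 ± 0.30 with tumor 1 and -2.24 without shows that tumor 1 did not stand out in this gene. Dkkl1, a secreted protein related to the Dickkopf family, fell by 2.57, and by 2.39 without tumor 1. The others of the 15 were Arc, Lamp5, Neurod6, Nr4a1, Sst, Kcnv1, Rgs4, Npas4 and Kcnh7, with differences of -3.67 to -2.29.

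Genes of mitosis rose in all but 1 case. Of 23 measured genes of mitosis and the spindle, 22 were higher and none lower, and their median difference was 1.65, against -0.10 over all genes. Without tumor 1, 21 were higher. Cdk1, the kinase that drives entry into mitosis, was at 9.75, 9.56, 10.20 and 10.45 in tumors, against 6.47, 7.27, 6.76 and 7.20 in normal cortex. Tumor 1 lay within the range of the other tumors, and the difference was 3.06 ± 0.42 (limma adjusted p = 2.4e-05), an 8.36-fold rise. Prc1, a bundler of spindle microtubules, rose by 2.46, Bub1, a checkpoint kinase, by 2.77, and Ube2c, an enzyme of the anaphase-promoting complex pathway, by 2.21. Bub1b, a checkpoint protein, had the closest tumor values of the list, at 7.94, 7.98, 8.19 and 8.12, against 6.28 to 6.52 in normal cortex. Mad2l1, the 1 member that did not pass, was at 8.85, 9.29, 9.49 and 10.31 in tumors, against 8.59 to 8.82 in normal cortex (adjusted p = 0.20).

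Since these genes moved the same way, the 250 bases before their start sites were searched for 2 motifs known from mitotic promoters, the CHR element TTTGAA and the CCAAT box, each on both strands. Among 20 members with a promoter in the RefSeq table of GRCm38.p6, 8 (40.0%) held TTTGAA and 17 (85.0%) CCAAT. Of 15614 measured genes with a promoter, 15.7% and 38.8% did. A gene with several windows counted when any of them matched. Among 20 DNA replication genes the counts were 3 (15%) and 14 (70.0%). A match is a description of these letters and not of a bound factor. Cdk1 and Cdc20, whose windows hold both, are shown 5′ to 3′ on the strand of the gene with the matches in capitals, ATTGG being CCAAT on the other strand. The Cdk1 window is chr10:69352913-69353162 on the minus strand and that of Cdc20 chr4:118437344-118437593 on the minus strand.
Cdk1: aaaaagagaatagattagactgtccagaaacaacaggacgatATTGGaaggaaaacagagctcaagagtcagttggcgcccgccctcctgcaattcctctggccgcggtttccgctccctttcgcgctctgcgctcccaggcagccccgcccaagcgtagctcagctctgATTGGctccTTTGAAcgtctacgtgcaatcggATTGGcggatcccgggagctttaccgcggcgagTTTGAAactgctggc
Cdc20: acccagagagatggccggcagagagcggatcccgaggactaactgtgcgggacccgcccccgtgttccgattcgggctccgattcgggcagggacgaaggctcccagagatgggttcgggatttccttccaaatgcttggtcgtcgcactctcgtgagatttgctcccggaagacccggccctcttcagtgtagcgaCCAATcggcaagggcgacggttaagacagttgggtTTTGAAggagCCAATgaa

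Cdc20, the activator of the anaphase-promoting complex, rose by 1.10, less than Cdk1. Of 23 DNA replication genes, 14 were higher and none lower with and without tumor 1, with median differences of 0.75 and 0.73. Rrm2, the regulatory subunit of ribonucleotide reductase, was at 8.30, 8.51, 9.42 and 9.06 in tumors, against 6.83 to 7.29 in normal cortex, and Mcm6, a subunit of the replicative helicase, at 8.22, 7.96, 8.59 and 8.68, against 6.36 to 6.81. Neither overlapped. Pcna, the sliding clamp of DNA polymerase, was at 10.36, 10.69, 11.25 and 11.41 in tumors, against 10.73 to 10.94 in normal cortex, with tumors on both sides (adjusted p = 0.81).

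Among 19 genes of G1 cyclins, CDK inhibitors and the RB family, 8 were higher and none lower, with and without tumor 1. Ccnd1, cyclin D1, was at 12.34, 11.76, 12.26 and 12.81 in tumors, against 10.21 to 10.68 in normal cortex, a rise of 1.85 ± 0.31 (limma adjusted p = 0.00016). Its partners Cdk4 and Cdk6 rose by 1.10 and 1.62, and Cdk2 by 1.71. The inhibitors Cdkn2a, Cdkn2b and Cdkn2c rose as well, by 1.64, 1.62 and 0.63. Cdkn1b, the inhibitor p27, was at 9.15 to 9.92 in tumors and 9.52 to 9.74 in normal cortex. Of 16 p53 target genes, 4 (25%) were higher and 2 (12.5%) lower, against 9.0% and 18.8% of all genes, and without tumor 1 the counts were 4 and 1. Tnfrsf10b, a death receptor, rose by 2.02 and Eda2r by 1.39, while Zmat3, an RNA-binding protein, fell by 0.93. Mdm2, the ligase that degrades p53, rose by 0.63 with tumor 1 and did not pass without it (adjusted p = 0.062).

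Genes that ERK signalling induces were mixed in their role. Of 18 measured, 9 were higher and 1 lower, with a median difference of 1.07, and without tumor 1 the counts were 7 and 1. The EGF receptor ligands of the list rose. Hbegf was at 10.97, 10.06, 11.09 and 11.25 in tumors, against 8.54 to 8.71 in normal cortex (difference 2.22 ± 0.33, limma adjusted p = 5.8e-05), and Ereg rose by 2.68. Hmga2, a chromatin protein of embryonic and tumor cells, was at 11.43, 11.13, 11.25 and 11.85 in tumors, against 7.85, 8.70, 8.04 and 8.78 in normal cortex. All 4 tumors lay above all normal arrays, tumor 4 the highest, and the difference was 3.07 ± 0.60 (limma adjusted p = 0.00061).

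Myc and Fosl1, transcription factors, rose by 2.36 and 2.42. The feedback genes did not move alike. Dusp4 rose by 1.53, Dusp5 by 1.33 and Spry4 by 1.77, and the last 2 did not pass without tumor 1 (adjusted p = 0.081 and 0.084). Dusp6, a phosphatase of ERK, was at 9.73, 9.59, 10.48 and 11.28 in tumors, against 10.23 to 10.68 in normal cortex, and Spry2 at 8.76 to 9.77, against 9.10 to 9.23. Etv5, a transcription factor induced by ERK in many tissues, fell by 1.10 ± 0.21, to 8.48, 9.15, 9.36 and 9.56 in tumors, against 10.15 to 10.38 in normal cortex.

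Of 21 receptor tyrosine kinases, 6 (28.6%) were higher and 5 (23.8%) lower, against 9.0% and 18.8% of all genes. Without tumor 1 the counts were 4 (19%) and 3 (14.3%), against 8.2% and 13.2%, so the share of losses was near that of all genes. Ddr2, a collagen receptor, rose by 2.35 ± 0.40, Axl, a receptor of Gas6, by 1.74, Fgfr1 by 1.29 and Egfr by 1.27. Egfr was at 9.44, 9.42, 9.74 and 10.48 in tumors, against 8.40 to 8.62 in normal cortex. Kit and Erbb4, which cortical neurons express, fell by 1.10 and 2.09. Pdgfra, the receptor of oligodendrocyte precursors and of many gliomas, was at 9.87, 9.80, 10.17 and 11.18, above the 9.27 to 9.48 of normal cortex in every tumor, and did not pass (difference 0.90, adjusted p = 0.15).

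Of 27 growth factors and cytokines, 6 (22.2%) were higher and 5 (18.5%) lower, the share of losses being near that of all genes (18.8%), and without tumor 1 the counts were 6 and 4. Il1b, Tgfb1, Lif, Csf1, Fgf2 and Il6 were the members that rose, by 0.94 to 1.78. Fgf1, Fgf13, Bdnf, Nrg3 and Igf2, of which the first 4 are made by neurons, fell by 0.54 to 2.35. Vegfa, the main growth factor of vessels, was at 10.92, 9.75, 10.14 and 10.81 in tumors, against 9.79 to 9.96 in normal cortex, and did not pass (adjusted p = 0.36). Of 18 Notch pathway genes, 3 (16.7%) were higher and 2 (11.1%) lower, against 9.0% and 18.8% of all genes, and without tumor 1 the counts were 3 and 3. The ligand Jag1 was at 10.83, 9.18, 9.93 and 10.52 in tumors, against 7.21 to 7.52 in normal cortex (difference 2.69 ± 0.72, limma adjusted p = 0.0062), and the receptors Notch1 and Notch2 rose by 0.98 and 1.68. Hes5, a target of Notch in neural progenitors, fell by 0.52, and Hes1 did not pass (difference 0.58, adjusted p = 0.066).

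Of 20 neural stem and progenitor genes, 7 (35%) rose and 2 (10%) fell with tumor 1, against 9.0% and 18.8% of all genes. Without it, 9 (45%) rose and 2 (10%) fell, against 8.2% and 13.2%. Cd24a, a surface protein of immature neurons, was at 10.53, 11.26, 11.34 and 11.83 in tumors, against 8.16 to 8.99 in normal cortex (difference 2.64 ± 0.46). Sox4 rose by 1.45. Igfbp2, a binding protein of insulin-like growth factors found in gliomas, was at 7.41, 9.82, 10.58 and 10.81 in tumors, against 8.53, 8.24, 8.06 and 8.28 in normal cortex. Tumor 1 lay below all normal arrays and tumors 2 to 4 above them, so the difference of 1.38 became 2.13 without tumor 1 (limma adjusted p = 0.034 and 0.00032). Sox2 and Sox11, transcription factors of progenitors, passed only without tumor 1, with differences of 1.10 and 1.43. Hopx and Nr2e1, of stem cells in the adult brain, fell by 0.79 and 1.22.

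Of 20 reactive astrocyte genes, 18 were higher and none lower, with a median difference of 2.10, and 17 were higher without tumor 1. Serpina3n, a protease inhibitor, was at 11.30, 12.66, 12.97 and 12.76 in tumors, against 9.24 to 10.71 in normal cortex (difference 2.50 ± 0.33, limma adjusted p = 1.5e-05). Lcn2, an iron-binding protein of the acute response, was at 8.40, 11.62, 12.79 and 11.26, against 6.86 to 8.81, so that tumor 1 overlapped the normal arrays. Cd109 and Osmr, the oncostatin M receptor, rose by 3.07 and 2.87 with no overlap.

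Gfap itself depended on tumor 1. It was at 6.89, 11.16, 11.93 and 10.75 in tumors 1 to 4, against 9.02, 9.59, 8.80 and 8.96 in normal cortex. Tumor 1 was the lowest of all 8 arrays and the other tumors were the 3 highest. The difference was 1.09 ± 0.67 with tumor 1 (limma adjusted p = 0.26) and 2.19 without it (limma adjusted p = 0.0020). Of 19 homeostatic astrocyte genes, 6 (31.6%) were lower with tumor 1, against 18.8% of all genes, and none higher. Without tumor 1, none passed in either direction. The mean of the list lay 3.09 below normal in tumor 1, given as -3.09, and at -0.68 to -0.21 in tumors 2 to 4. Aldoc, a glycolytic enzyme of astrocytes, was at 7.79, 12.52, 12.43 and 12.03 in tumors, against 12.99 to 13.20 in normal cortex. Aqp4, the water channel of astrocyte endfeet, was at 6.66 in tumor 1 and at 9.90 to 10.33 in tumors 2 to 4, against 9.58 to 10.04 in normal cortex.

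Of 15 oligodendrocyte precursor genes, 1 (6.67%) fell with tumor 1, Gpr17, against 18.8% of all genes, and none passed without it. Lhfpl3 was at 7.32 in tumor 1 and 9.81 to 10.82 in tumors 2 to 4, against 9.01 to 9.18 in normal cortex (adjusted p = 0.66, and 0.053 without tumor 1). Myelin and oligodendrocyte genes were lower in 10 of 14 (71.4%) with tumor 1 and in 3 (21.4%) without it, against 18.8% and 13.2% of all genes. Those 3 were Opalin, Fa2h and Mog. Opalin, a protein of the myelin loops, was at 6.47, 7.03, 7.25 and 6.39 in tumors, against 8.39 to 8.92 in normal cortex (difference -1.88 ± 0.33, limma adjusted p = 0.00026). Trf, the transferrin that oligodendrocytes make, did not pass, at 10.61 to 12.70 in tumors and 11.38 to 12.01 in normal cortex.

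**Figure D3:**
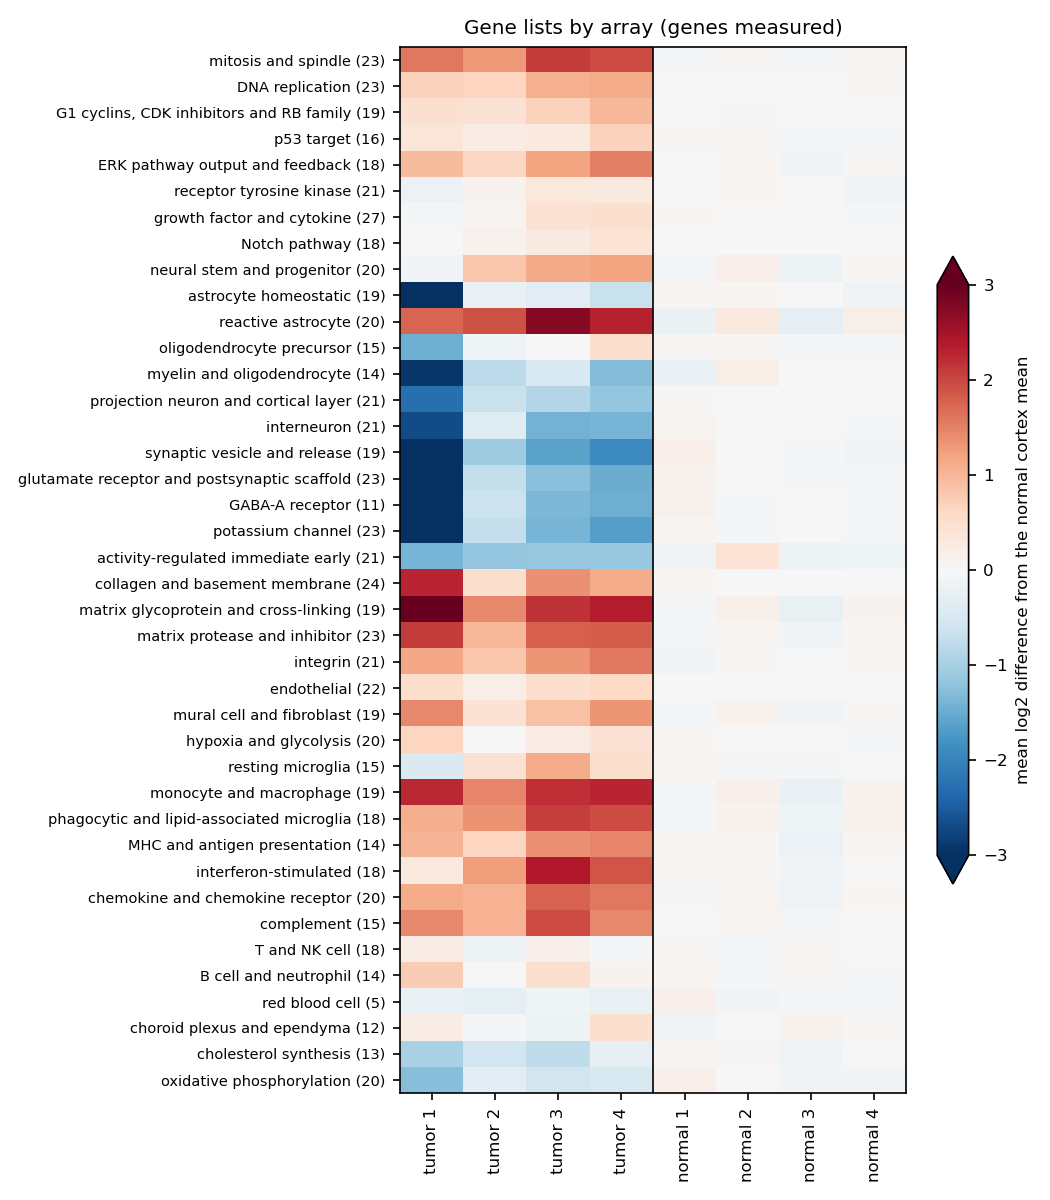
Mean log2 difference from the normal cortex mean for 40 gene lists (rows, with the number of genes measured) in each of the 4 GFAP cortex tumors and the 4 normal cortex arrays (columns), with colours ending at -3 and 3. Tumor 1 is the palest of the tumors for interferon-stimulated genes (0.29, against 1.26 to 2.39 in tumors 2 to 4) and the deepest blue for synaptic vesicle genes (-4.36, against -1.06 to -1.91).

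Synaptic genes fell across functions. Of 19 synaptic vesicle genes, 18 were lower with tumor 1 and 15 without it, with median differences of -2.25 and -1.56. Stx1a, syntaxin 1A of the release machinery, was at 8.03, 8.85, 8.16 and 8.30 in tumors, against 10.86, 10.49, 10.39 and 10.62 in normal cortex. In this gene tumor 1 was close to the other tumors, and the difference was -2.25 ± 0.27 (limma adjusted p = 5.0e-06). Bsn, a scaffold of the active zone, was at 7.19, 9.30, 8.87 and 8.43, against 10.48 to 10.59, and Vamp1 at 7.83, 9.79, 9.32 and 8.81, against 11.03 to 11.48. Syt4, the 1 member that did not pass, was at 10.90 in tumor 4, within the 10.74 to 11.04 of normal cortex.

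Of 23 genes of glutamate receptors and the postsynaptic scaffold, 20 were lower with tumor 1 and 11 without it. Homer1, a scaffold protein, fell by 2.03 and Grm2, a presynaptic glutamate receptor, by 2.04, and both passed without tumor 1, at -1.69 and -1.74. The AMPA receptor genes Gria1 and Gria2 did not pass in either fit. Gria1 was at 6.43 in tumor 1 and at 10.65 to 11.33 in tumors 2 to 4, against 11.49 to 11.72 in normal cortex. Of 11 genes of GABA-A receptors and inhibitory synapses, 9 were lower with tumor 1 and 5 without it. Gabrd, the subunit of receptors outside synapses, was at 7.19, 8.97, 7.28 and 7.50 in tumors, against 9.48 to 9.72 in normal cortex (difference -1.86 ± 0.34, limma adjusted p = 0.00031).

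Potassium channel genes were lower in 22 of 23 with tumor 1 and in 15 without it, and their medians were -1.83 and -1.28. Kcnh7, a channel of the ether-a-go-go related family, was at 6.11, 9.55, 8.03 and 8.12 in tumors, against 10.73 to 10.92 in normal cortex, with a difference of -2.84 ± 0.51. Kcnq5, a channel of the M current, fell by 1.91. Kcnn4, a calcium-gated channel of blood cells and epithelium, was the 1 member that did not pass, at 7.10 to 7.92 in tumors and 6.64 to 7.11 in normal cortex.

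Markers of cortical cell classes fell in part. Projection neuron and layer genes were lower in 14 of 21 with tumor 1 and in 10 without it, and higher in none. Fezf2, which specifies corticospinal neurons, was at 7.46, 8.32, 8.73 and 8.15 in tumors, against 10.08, 10.20, 10.02 and 10.24 in normal cortex (difference -1.97 ± 0.29, limma adjusted p = 4.9e-05). Cux2 of the upper layers fell by 1.32. Crym, a thyroid hormone binding protein, was at 6.87 in tumor 1 and at 9.06 to 9.89 in tumors 2 to 4, against 9.16 to 9.71 in normal cortex, and did not pass.

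Interneuron genes were lower in 12 of 21 (57.1%) with tumor 1 and in 6 (28.6%) without it, against 18.8% and 13.2% of all genes. Vip, a neuropeptide of a class of interneurons, was at 6.53, 8.01, 6.83 and 6.86 in tumors, against 8.78 to 8.98 in normal cortex (difference -1.79 ± 0.26, limma adjusted p = 4.2e-05). Pvalb fell by 1.95, also without tumor 1 (-1.70). Tumor 2 was the high tumor for several members that did not pass. Calb2 was at 10.27 in tumor 2 and at 6.16 to 6.70 in the other tumors, against 7.51 to 8.04 in normal cortex. Dlx1, a transcription factor of interneurons and striatal neurons, was at 9.63 in tumor 2 and 6.85 to 7.36 in the others, against 8.71 to 8.90 in normal cortex. The same tumor was high for the striatal markers given above, and their part in these values was not tested.

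Of 21 activity-regulated genes, 14 fell and 1 rose with tumor 1, and 11 fell and 1 rose without it. The list mean was -1.38 in tumor 1 and -1.14 to -1.16 in tumors 2 to 4, so tumor 1 was the lowest and stood apart from the other 3. Egr3, an immediate early transcription factor, was at 8.33, 8.62, 8.70 and 8.56 in tumors, against 10.51, 10.92, 10.66 and 10.59 in normal cortex. The tumors lay close together and below every normal array, and the difference was -2.12 ± 0.20 (limma adjusted p = 2.8e-07). Egr1 and Egr4 fell by 1.61 and 1.69, Nr4a3 by 2.22 and Nptx2, a pentraxin of excitatory synapses, by 1.77.

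Jun, a subunit of AP-1, went the other way, at 10.01, 10.14, 10.70 and 10.96 in tumors, against 9.57, 9.64, 9.50 and 9.56 in normal cortex (difference 0.88 ± 0.32, limma adjusted p = 0.041). Fos fell by 0.64 with tumor 1 and did not pass without it (adjusted p = 0.083). Junb, Jund, Ier2, Btg2 and Fosl2 did not pass in either fit. Of 16 members with a promoter window, 2 (12.5%) held the cyclic AMP response element TGACGTCA, against 2.33% of all genes with a window. None held the AP-1 motif TGACTCA, against 4.75%.

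**Figure D4:**
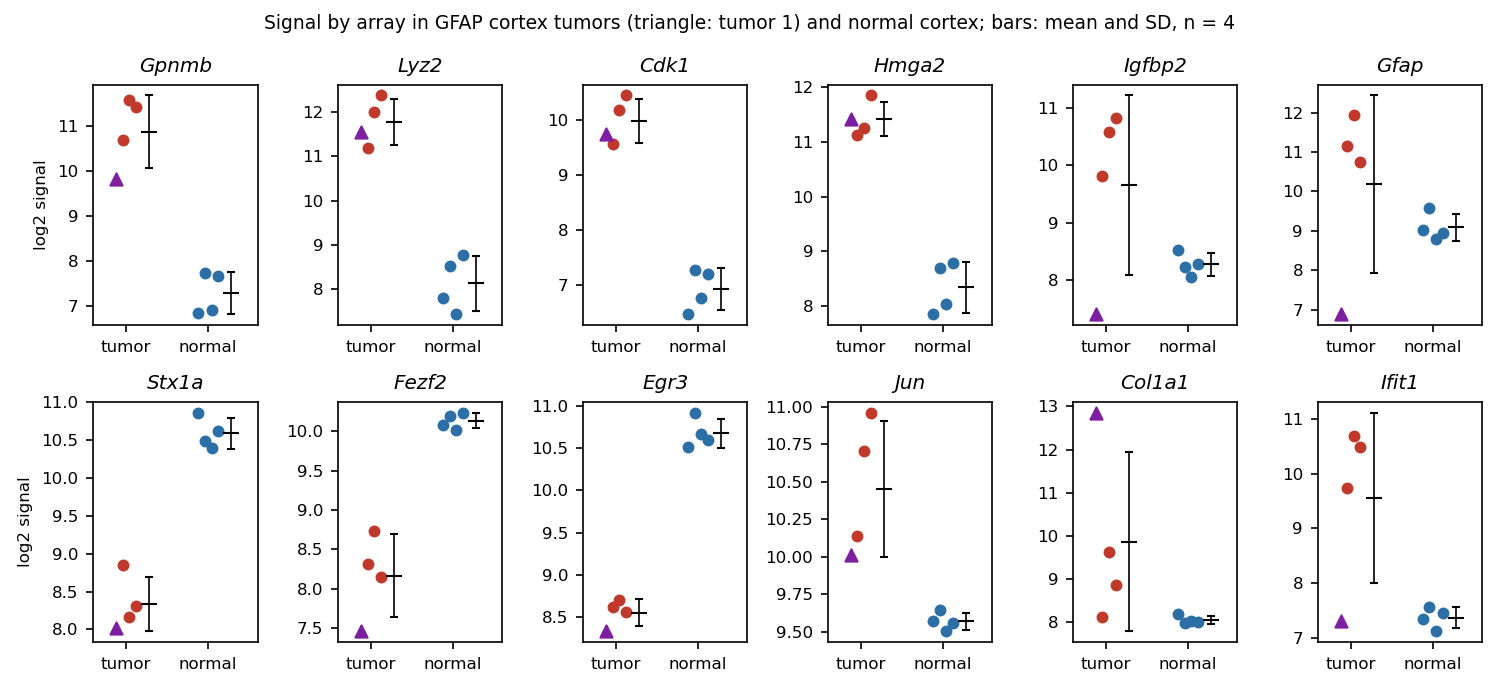
Log2 signal (vertical axis) of 12 genes in the 4 GFAP cortex tumors (left of each panel, tumor 1 as a triangle) and the 4 normal cortex arrays (right), with the mean and SD of each group (n = 4). Gfap, Igfbp2 and Ifit1 have tumor 1 within or below the normal arrays, at 6.89, 7.41 and 7.31, and Col1a1 has it alone at 12.85, while Egr3 and Stx1a have all 4 tumors below all normal arrays.

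Matrix genes were mostly higher. Of 24 collagen and basement membrane genes, 20 were higher with tumor 1 and 13 without it, with median differences of 1.26 and 0.80. The list mean was 2.27 in tumor 1 and 0.49 to 1.36 in tumors 2 to 4, and the dermal fibroblast genes given above were highest in the same array. Their part in the result was not tested. Col1a1, of fibrillar collagen I, was at 12.85, 8.13, 9.62 and 8.88 in tumors, against 7.98 to 8.18 in normal cortex, and passed with tumor 1 (adjusted p = 0.021) and not without it (0.12). Lamb1, a laminin chain, was at 10.93, 9.90, 10.26 and 10.47 in tumors, against 7.57 to 7.76 in normal cortex (difference 2.75 ± 0.40, limma adjusted p = 4.7e-05), and Lamc1 and Lama4 rose by 1.41 and 2.09.

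Matrix glycoprotein and cross-linking genes were higher in 17 of 19, and in 14 without tumor 1, and lower in none. Tgfbi was at 11.19, 10.44, 11.38 and 11.47 in tumors, against 7.54 to 8.16 in normal cortex, a rise of 3.21 ± 0.48. Ecm1 rose by 3.26 and Vcan, the proteoglycan versican, by 1.99. Lox, the enzyme that cross-links collagen, was at 11.41 in tumor 1 and 7.24 to 8.82 in tumors 2 to 4, against 6.05 to 6.31 in normal cortex, and passed in both fits. Postn, periostin, was at 11.69 in tumor 1 and 7.34 to 9.37 in the others, against 6.42 to 6.93, and did not pass without tumor 1 (adjusted p = 0.072).

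Of 23 matrix proteases and inhibitors, 17 rose and 2 fell, and without tumor 1 the counts were 13 and 1. Mmp14, a membrane-bound collagenase, was at 11.13, 9.59, 10.28 and 10.40 in tumors, against 7.54 to 8.0 in normal cortex (difference 2.61 ± 0.41, limma adjusted p = 9.1e-05). Plaur, the urokinase receptor, rose by 2.94. Mmp17, a membrane protease of neurons among other cells, fell by 1.94, to 7.51, 9.21, 9.21 and 8.90, against 10.47 to 10.89. Mmp3, stromelysin, was at 11.28 in tumor 1 and 7.74 to 8.33 in tumors 2 to 4, against 5.73 to 6.14 in normal cortex (difference 2.79 ± 0.59, and 1.96 without tumor 1). Mmp9 was at 11.65, 7.50, 9.80 and 9.09, against 6.90 to 7.0, and did not pass without tumor 1 (adjusted p = 0.071).

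The AP-1 motif TGACTCA was searched on either strand in the 250 bases before the start. It was in 6 of the 14 protease list members with a window (42.9%), against 4.75% of all genes with a window. These were Mmp3, Mmp10, Mmp12, Mmp13, Adam19 and Plaur. Adam19 was the 1 of these 6 that did not pass, at 7.65 to 9.45 in tumors and 8.40 to 8.73 in normal cortex. The window of Mmp3, chr9:7445572-7445821 on the plus strand, is shown with its match in capitals on the other strand, TGAGTCA.
Mmp3: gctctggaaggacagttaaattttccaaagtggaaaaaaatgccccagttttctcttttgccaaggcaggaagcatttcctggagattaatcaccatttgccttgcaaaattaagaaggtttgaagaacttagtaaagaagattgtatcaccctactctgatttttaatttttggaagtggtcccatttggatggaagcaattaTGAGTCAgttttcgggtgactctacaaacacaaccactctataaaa

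Of 21 integrins, the receptors for these matrix proteins, 11 (52.4%) rose and none fell, with and without tumor 1. Of all genes, 9.0% and 8.2% rose. Itgb1, the shared beta chain, was at 12.12, 11.17, 11.71 and 11.98 in tumors, against 8.59 to 9.27 in normal cortex (difference 2.76 ± 0.44, limma adjusted p = 9.9e-05), and Itga6, a laminin receptor chain, rose by 1.91. Itgb2, the beta chain of leukocyte integrins, rose by 1.95. Itgav and Itgb8 did not pass, at 10.93 to 12 and 7.09 to 10.31 in tumors, against 10.79 to 10.97 and 10.06 to 10.23 in normal cortex.

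Of 22 endothelial genes, 6 (27.3%) were higher and 1 (4.55%) lower, against 9.0% and 18.8% of all genes. Without tumor 1 the counts were 5 (22.7%) and 1 (4.55%), against 8.2% and 13.2%. Vwf, the clotting factor of endothelium, was at 8.30, 8.61, 8.71 and 8.76 in tumors, against 7.38 to 7.46 in normal cortex (difference 1.18 ± 0.15, limma adjusted p = 1.3e-05). Esm1 and Angpt2, genes of sprouting endothelium, rose by 1.93 and 1.35, and Apln, a peptide hormone, fell by 1.25. Kdr, Flt1 and Tek, receptors of endothelium, did not pass, with differences of -0.07 to 0.23. Of 19 genes of mural cells and fibroblasts, 8 (42.1%) rose with tumor 1 and 6 (31.6%) without it, and none fell. Pdpn, podoplanin, was at 12.15, 10.58, 11.60 and 11.07 in tumors, against 8.43 to 8.77 in normal cortex (difference 2.76 ± 0.42). Acta2, smooth muscle actin, rose by 2.22, and the pericyte genes Rgs5 and Kcnj8 did not pass, with differences of -0.14 and 0.01.

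In the list of hypoxia and glycolysis, 5 of 20 members (25%) rose and 2 (10%) fell, against 9.0% and 18.8% of all genes, and 4 and 2 without tumor 1. Adm, adrenomedullin, rose by 2.50 and Hk2, hexokinase 2, by 1.75. Aldoa, muscle-type aldolase, fell by 0.85, to 12.40, 12.47, 12.57 and 12.49 in tumors, against 13.21 to 13.48 in normal cortex. Ldha and Pkm did not pass, with differences of 0.04 and -0.15.

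Most immune lists held more gains than losses. Of 19 monocyte and macrophage genes, 16 were higher with tumor 1 and 14 without it, and none was lower. Cybb, a subunit of the phagocyte oxidase, was at 8.55, 8.87, 9.99 and 10.47 in tumors, against 6.21 to 6.85 in normal cortex, a rise of 2.90 ± 0.52. Arg1, arginase of macrophages, was at 10.34, 8.33, 9.52 and 10.15, against 6.18 to 6.69, a rise of 3.15 ± 0.55. Cd163, of perivascular and tissue macrophages, was at 8.0 in tumor 1 and 6.10 to 6.13 in tumors 2 to 4, against 5.90 to 6.09 in normal cortex, and did not pass.

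Phagocytic and lipid-associated microglia genes were higher in 14 of 18 in both fits. Cd9, a tetraspanin, was at 10.69, 10.56, 11.05 and 10.79 in tumors, against 8.41 to 8.96 in normal cortex (difference 2.10 ± 0.23, limma adjusted p = 2.3e-06). Lgals3, galectin-3, rose by 3.22 and Clec7a, a receptor for fungal glucans, by 2.26. Apoe, the lipid carrier of glia, was at 12.11 to 13.44 in tumors and 12.87 to 13.23 in normal cortex. Of 15 resting microglia genes, 2 (13.3%) rose with tumor 1 and 4 (26.7%) without it, against 9.0% and 8.2% of all genes. None of them fell. P2ry12, the purinergic receptor of resting microglia, was at 7.18, 8.72, 9.40 and 8.90 in tumors, against 8.42 to 8.73 in normal cortex, and Tmem119 at 8.89 to 10.29, against 8.62 to 9.0. Neither passed.

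Complement genes were higher in 11 of 15, and in 10 without tumor 1, and lower in none. C4b was at 9.21, 10.24, 11.09 and 10.41 in tumors, against 7.11 to 7.69 in normal cortex (difference 2.86 ± 0.35, limma adjusted p = 5.1e-06), and C3ar1, a receptor for a complement peptide, rose by 2.88. C1qa rose by 1.97. Of 20 chemokines and their receptors, 14 rose and 1 fell, and without tumor 1 the counts were 11 and 2. Ccl3 and Ccl2, which attract monocytes, rose by 3.20 and 2.98. Cx3cl1, fractalkine of neurons, was at 9.0, 10.76, 10.61 and 9.94 in tumors, against 12.26 to 12.45 in normal cortex (difference -2.24 ± 0.36), and Cxcl12 fell only without tumor 1 (-0.53, adjusted p = 0.038).

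Antigen presentation genes were higher in 10 of 14, and in 9 without tumor 1, and lower in none. H2-Ab1, of MHC class II, was at 9.34, 8.24, 8.92 and 10.01 in tumors, against 6.37 to 7.0 in normal cortex (difference 2.36 ± 0.39), and its invariant chain Cd74 also rose by 2.36. Tap1, the peptide transporter of class I, rose by 1.32. Ciita, the activator of class II genes, did not pass, at 6.44 to 6.97 in tumors and 6.54 to 6.63 in normal cortex.

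Interferon-stimulated genes were higher in 15 of 18 with tumor 1 and in 17 without it. Tumor 1 was the lowest tumor for this list, with a mean difference from normal of 0.29, while tumors 2 to 4 had 1.26, 2.39 and 1.90. Ifit1, an antiviral RNA-binding protein, was at 7.31, 9.73, 10.69 and 10.48 in tumors, against 7.35, 7.58, 7.13 and 7.46 in normal cortex. Tumor 1 lay within the normal arrays, and the difference was 2.18 ± 0.63 with it (limma adjusted p = 0.010) and 2.92 without (0.00095). Ifit3 was at 7.10, 10.19, 10.42 and 10.29, against 7.31 to 8.01, with tumor 1 below every normal array. Cxcl10, a chemokine induced by interferon, was at 7.34, 8.73, 11.29 and 9.85, against 6.63 to 7.02. Irf1, by contrast, was at 7.87 in tumor 1 and 7.66 to 8.52 in tumors 2 to 4, against 6.91 to 6.99.

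The promoters of these genes were searched for the interferon response element on both strands. It was in 8 of 15 members with a window (53.3%), against 3.40% of all genes with a window. The windows of Ifit1, chr19:34640639-34640888, and Ifit3, chr19:34583279-34583528, both on the plus strand, are shown because tumor 1 read low in both genes, with each match in capitals.
Ifit1: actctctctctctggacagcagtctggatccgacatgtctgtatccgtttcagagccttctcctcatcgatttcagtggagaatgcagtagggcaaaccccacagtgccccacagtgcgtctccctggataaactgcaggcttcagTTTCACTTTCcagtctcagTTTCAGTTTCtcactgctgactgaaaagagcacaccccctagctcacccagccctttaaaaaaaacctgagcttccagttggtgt
Ifit3: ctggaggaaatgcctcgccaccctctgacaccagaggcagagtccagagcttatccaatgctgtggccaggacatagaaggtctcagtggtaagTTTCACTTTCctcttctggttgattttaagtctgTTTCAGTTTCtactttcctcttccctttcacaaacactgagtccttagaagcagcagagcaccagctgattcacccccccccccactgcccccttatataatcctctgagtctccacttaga

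Lists of other cells gave few calls. None of 18 T and NK cell genes passed in either fit, and the T cell markers Cd3d, Cd3e and Cd8a were at 5.45 to 5.93, 6.73 to 7.43 and 6.23 to 6.65 in tumors, against 5.63 to 5.89, 6.95 to 7.02 and 6.23 to 6.48 in normal cortex. Of 14 B cell and neutrophil genes, 2 (14.3%) were higher with and without tumor 1, against 9.0% and 8.2% of all genes. They were the neutrophil receptors Csf3r and Cxcr2, which rose by 1.07 and 1.69. Of 5 red blood cell genes, 1 (20%) was lower with tumor 1, near the 18.8% of all genes, and none without it. None of 12 choroid plexus and ependyma genes passed. Ttr, the transthyretin of choroid plexus, was at 12.27 in tumor 4 and at 7.07 to 8.07 in tumors 1 to 3, against 7.86 to 9.24 in normal cortex.

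Lists of lipid and energy metabolism held losses. Cholesterol synthesis genes were lower in 8 of 13, and in 5 without tumor 1, and higher in none. Srebf2, the transcription factor of the pathway, was at 9.87, 10.03, 9.86 and 9.86 in tumors, against 10.80 to 11 in normal cortex (difference -0.98 ± 0.16, limma adjusted p = 0.00011), and Hmgcs1, the enzyme before the rate-limiting step, fell by 1.26. The 4 tumors lay close together and apart from the normal arrays in Srebf2. Dhcr7 and Sqle did not pass. Oxidative phosphorylation genes were lower in 12 of 20 (60%) with tumor 1 and in 5 (25%) without it, with medians of -0.64 and -0.47. Of all genes, 18.8% and 13.2% were lower. In the highest bin of normal signal, 1983 of 3988 genes were lower with tumor 1 and 1252 without it. The list was not matched to other genes of like level. Atp5b, of ATP synthase, was at 12.08, 12.61, 12.60 and 12.63 in tumors, against 13.02 to 13.23 in normal cortex.

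To ask which of these differences belonged to cortex, the difference in cortex was set against that between 7 GFAP hippocampus tumors and 4 normal hippocampus arrays, with other tumors and other normal arrays on both sides. The 2 differences differed in 167 genes (0.838%), of which 99 (0.497%) were more positive and 68 (0.341%) more negative in cortex. Without tumor 1 the count was 270 (1.35%), and 158 genes (0.792%) were called in the same direction in both fits. The balance of directions turned with the processing. It was 88 positive and 112 negative after centring, 633 and 1063 with array weights and 120 and 422 with a replicate block. GFAP hippocampus tumors 5 to 7 stood apart from hippocampus tumors 1 to 4, with interquartile ranges of 2.18 to 2.40 against 2.63 to 3.03, and without them and cortex tumor 1 the counts were 190 and 347. Rxfp2, a receptor for relaxin-type peptides, was at 6.0, 6.27, 5.61 and 6.0 in cortex tumors, against 7.78, 7.77, 8.0 and 7.60 in normal cortex, and at 5.73 to 6.14 in hippocampus tumors, against 5.82 to 6.12 in normal hippocampus. The cortex difference was 1.75 ± 0.21 more negative, given as -1.75 (limma adjusted p = 1.5e-05). Dkkl1 was at 6.73 to 7.89 in cortex tumors, against 9.54 to 10.04 in normal cortex, and at 6.08 to 7.94 in hippocampus tumors, against 6.75 to 7.11 in normal hippocampus (-2.25 ± 0.38).

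Cckbr, Efna5, Rasgef1b, Myl4 and Igfbp6 had interactions of -2.16 to -1.89. Igfbp6, a binding protein of insulin-like growth factor II, was at 7.72 to 8.61 in cortex tumors, against 9.67 to 10.41 in normal cortex, and at 7.70 to 9.11 in hippocampus tumors, against 7.97 to 8.42 in normal hippocampus. Tmsb10, an actin-binding thymosin, was the 1 of the 8 most negative that was not called in cortex. It was at 10.04 to 10.85 in cortex tumors, against 9.80 to 9.97 in normal cortex, and at 10.79 to 11.34 in hippocampus tumors 1 to 4 and 12.52 to 12.96 in hippocampus tumors 5 to 7, against 9.34 to 9.62 in normal hippocampus (interaction -1.92 ± 0.46, limma adjusted p = 0.037). Its call was lost in 17 of 31 alternatives, with adjusted p up to 0.38, and was -1.40 without the 4 arrays that stand apart (adjusted p = 0.00056). Efna5, a ligand of Eph receptors, divided the same arrays. It was at 7.77 to 8.78 in cortex tumors, against 9.52 to 9.84 in normal cortex. In hippocampus it was at 8.60 to 9.67 in tumors 1 to 4 and 7.21 to 7.58 in tumors 5 to 7, against 7.65 to 7.83 in normal arrays. Its interaction call was lost in 9 of 31 alternatives, with limma adjusted p up to 0.0935.

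Among the most positive, Syna, a fusogenic envelope protein, was at 7.19, 6.71, 8.03 and 6.76 in cortex tumors, against 6.90 to 7.01 in normal cortex, and at 6.27 to 7.21 in hippocampus tumors, against 9.83 to 10.13 in normal hippocampus (interaction 3.45 ± 0.28, limma adjusted p = 2.5e-08). Slc9a4, a sodium and proton exchanger, and Npy2r, a receptor for neuropeptide Y, gave 3.01 ± 0.29 and 3.39 ± 0.44. For Ndst4, Shisa6, Cabp7 and Pcdh20 the values were 3.07 to 3.76. Shisa6 was at 8.56 to 9.20 in hippocampus tumors 1 to 4 and 6.82 to 7.0 in hippocampus tumors 5 to 7, against 11.12 to 11.66 in normal hippocampus. Dsp, the desmosomal protein desmoplakin, was at 10.28 in tumor 1 and 6.57 to 7.32 in tumors 2 to 4, against 6.35 to 6.74 in normal cortex, and its interaction of 2.98 became 2.12 without tumor 1, with the call lost in 17 of 31 alternatives. Of the 8 positive genes, only Pcdh20 was itself called in cortex (difference -1.07, limma adjusted p = 0.036).

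**Figure D5:**
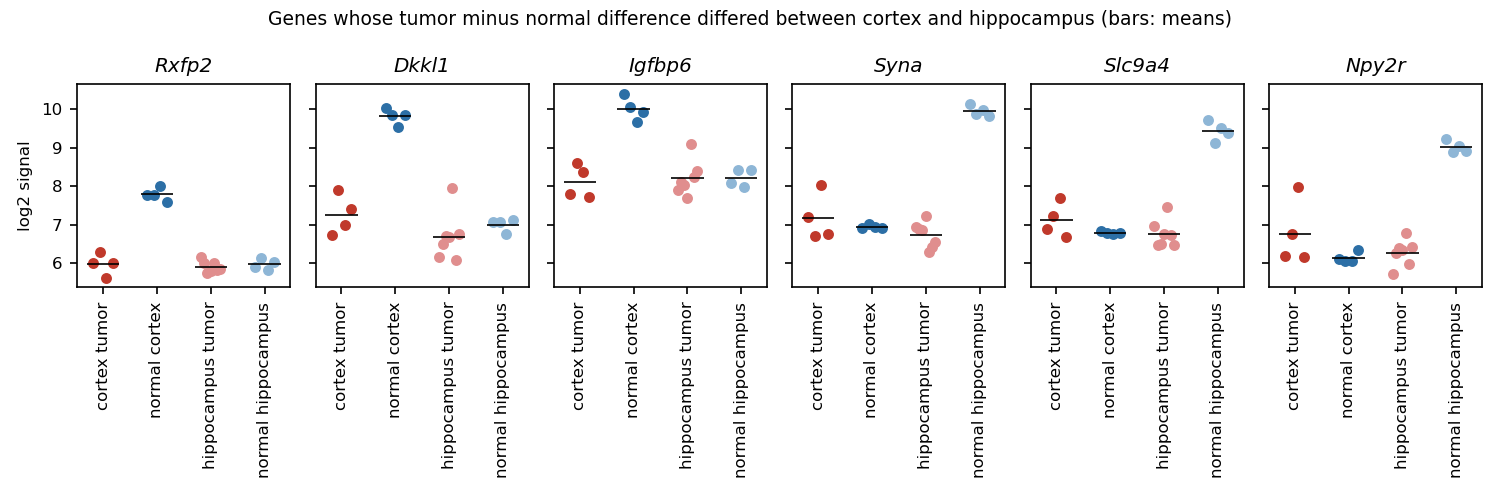
Log2 signal (vertical axis) of 6 genes in the 4 GFAP cortex tumors, 4 normal cortex arrays, 7 GFAP hippocampus tumors and 4 normal hippocampus arrays, with the mean of each group as a bar. Rxfp2, Dkkl1 and Igfbp6 are high in normal cortex alone, and Syna, Slc9a4 and Npy2r in normal hippocampus alone, as far as these 4 groups go.

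GFAP cortex tumors were last set directly against the 4 SYN1 cortex tumors, begun with the promoter of a neuronal vesicle gene in the same region. Xist was at 11.09 to 11.65 and Eif2s3y at 4.27 to 5.02 in the 4 SYN1 tumors, the opposite of the GFAP tumors, so promoter and sex-linked signal cannot be told apart in this comparison. With all GFAP tumors, 35 genes (0.176%) differed, 5 higher (0.0251%) and 30 lower (0.15%) in GFAP tumors. Without tumor 1, 1132 genes (5.68%) differed, 900 higher and 232 lower, and all 35 were among them with the same direction. The count thus changed with that 1 array. None of the 11 genes named below kept its call under every alternative, and all 11 lost it without GFAP tumor 2 (adjusted p from 0.066 to 0.17), without SYN1 tumor 3 (0.14 to 0.29) and with only the 8 arrays compared (0.061 to 0.22).

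Fgfr2, a receptor that astrocytes and progenitors carry, was at 8.85, 9.10, 8.90 and 8.17 in GFAP tumors, against 6.98 to 7.73 in SYN1 tumors (difference 1.26 ± 0.27, limma adjusted p = 0.048). Normal cortex was at 9.11 to 9.27, above all 4 GFAP tumors. Lbp, which binds bacterial lipopolysaccharide, was higher by 1.30 and Cmya5 by 0.61. Kcnn4, the calcium-gated channel named above, was at 7.10 to 7.92 in GFAP tumors, against 9.02 to 10.03 in SYN1 tumors (difference -1.85 ± 0.35, limma adjusted p = 0.029). Prl8a9, Slc25a21, Lncenc1, Oasl1, Stac, Adcy7 and Tslp were lower by 1.38 to 2.18, given as differences of -2.18 to -1.38. With Kcnn4 these are the 8 most negative genes called. That the groups did not overlap in them follows in part from that choice, and the share over all genes is not given here.

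Several lists of neurons and resting astrocytes depended on tumor 1 as well. With tumor 1, no synaptic vesicle, glutamate receptor, GABA-A receptor, projection neuron or homeostatic astrocyte gene differed between GFAP and SYN1 tumors. Without it, 13 of 19 synaptic vesicle genes, 14 of 23 glutamate receptor genes, 7 of 11 GABA-A receptor genes, 8 of 21 projection neuron genes and 9 of 19 homeostatic astrocyte genes were higher in GFAP tumors 2 to 4, against 4.51% of all genes, and none was lower. Of 23 potassium channel genes, 11 were higher and 1 lower, of 21 interneuron genes 1 was higher, and of 21 activity-regulated genes none differed. Collagen genes were lower in 4 of 24, endothelial genes in 4 of 22, with 1 higher, and monocyte genes in 3 of 19, against 1.16% of all genes.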

How the data were processed

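Total RNA was extracted with Trizol, amplified with the Ambion WT kit and hybridised to Affymetrix Mouse Gene arrays, per the labels' protocols. The authors deposited log2 signals per probe set. Affymetrix Power Tools, RMA and MAS5 appear in the submitters' processing notes without the step each served. Values ran from 0.133 to 16.07 and array medians from 7.032 to 7.303, and no 2 arrays were identical. Of 35556 probe sets, 21789 named 1 symbol, 1621 several and 12146 none, of which 21698 matched RefSeq GRCm38.p6. For the 999 genes with more than 1 probe set, that with the highest mean over all arrays was kept, which left 19938 genes.

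limma 3.58.1 in R 4.3.3 was fitted with 7 group means over 30 arrays, with Benjamini-Hochberg adjustment over all genes and a threshold of 0.05, and again without tumor 1. ± is the SE of the fit. Groups were taken from the labels. The members, 40 gene lists and tests were chosen with earlier results of these data known. Named were the 15 largest gains and losses called in both fits with groups that do not overlap, the 8 largest each way for the hippocampus and SYN1 comparisons, the 8 genes in which tumor 1 lay farthest from the other tumors each way, up to 5 examples per list or members whose role is described, and the tissue markers. The list examples were members with the smallest p in each direction and members that did not pass, or members whose role is described. Predicted genes were not named. The 5 lists of squamous epithelium, dermal fibroblast, skeletal muscle, sex-linked and brain identity genes were added after seeing the data. Alternatives changed the normalization, the filter on the dimmest 30% of genes, the probe set rule, the arrays fitted, weights, a replicate block and single arrays left out. The fit was tested on simulated data.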

Additional observations from a re-analysis of the deposited data

Results flagged for a closer look

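Among the 262 genes named, 51 groups of 4 arrays held 1 array far from the other 3 by Dixon's criterion, out of 524 groups examined, and chance alone marks about 1 in 20 such groups. Tumor 1 was that array in 29, of which 16 were named because it lay farthest from the other tumors there and Prm1 was chosen after its values were seen, so these cannot be set against chance. The other 12 were named by other rules. It stood above the other tumors in 11 genes, Cd163 at 8.0 (others 6.10 to 6.13), Gzmd at 9.30 (others 5.31 to 5.96), Krt10 at 10.18 (others 6.60 to 6.78), Krt14 at 10.78 (others 6.36 to 6.50), Krt15 at 10.55 (others 6.44 to 6.59), Krt5 at 11.53 (others 6.19 to 6.27), Mfap5 at 10.34 (others 6.32 to 6.61), Mmp3 at 11.28 (others 7.74 to 8.33), Sfrp2 at 11.58 (others 7.26 to 7.52), Tmsb10 at 10.85 (others 10.04 to 10.16) and Trim29 at 9.93 (others 6.44 to 6.51). It stood below them in 18 genes, Aldoc at 7.79 (others 12.03 to 12.52), Aqp4 at 6.66 (others 9.90 to 10.33), Atp5b at 12.08 (others 12.60 to 12.63), Fabp7 at 8.15 (others 12.59 to 12.98), Fam107a at 6.79 (others 11.36 to 12.04), Gpm6a at 7.46 (others 11.84 to 12.51), Gpr17 at 6.77 (others 7.91 to 8.05), Gria1 at 6.43 (others 10.65 to 11.33), Ifit3 at 7.10 (others 10.19 to 10.42), Itgb8 at 7.09 (others 9.99 to 10.31), Plekhb1 at 6.70 (others 11.16 to 11.36), Prm1 at 7.41 (others 9.52 to 9.67), Rgs5 at 8.60 (others 9.14 to 9.26), Rtn1 at 6.73 (others 11.31 to 11.83), Scg3 at 5.63 (others 10.76 to 11.41), Scn2a at 6.86 (others 11.30 to 12.04), Sox11 at 6.89 (others 9.35 to 9.86) and Syt1 at 7.28 (others 11.67 to 12.41). Tumor 1 also differed in its markers of skin and brain, and their part in these values was not tested.

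Tumor 2 stood above the other tumors in Calb2 at 10.27 (others 6.16 to 6.70) and Srebf2 at 10.03 (others 9.86 to 9.87). Tumor 2 stood below the other tumors in Apln at 8.04 (others 8.70 to 8.82), Lamc1 at 9.16 (others 9.72 to 9.83) and Myc at 9.36 (others 10.29 to 10.34). Tumor 3 stood above the other tumors in Stac at 6.97 (others 6.75 to 6.77). Tumor 4 stood above the other tumors in Egr1 at 10.10 (others 9.46 to 9.57) and Itgav at 12 (others 10.93 to 11.08). Normal cortex 1 stood above the other normal arrays in C1qa at 8.91 (others 8.45 to 8.52), Cx3cl1 at 12.45 (others 12.26 to 12.27), Eda2r at 6.22 (others 5.84 to 5.89), Sfrp2 at 7.55 (others 7.22 to 7.23), Slc17a7 at 13.04 (others 12.74 to 12.78) and Xist at 11.17 (others 5.49 to 5.96). Normal cortex 1 stood below the other normal arrays in Eif2s3y at 4.75 (others 8.97 to 9.05) and Jag1 at 7.21 (others 7.47 to 7.52). Normal cortex 2 stood above the other normal arrays in Arc at 12.02 (others 11.32 to 11.40), Junb at 9.31 (others 8.42 to 8.53) and Pcna at 10.94 (others 10.73 to 10.76). Normal cortex 2 stood below the other normal arrays in Bsn at 10.48 (others 10.57 to 10.59) and Csf3r at 6.77 (others 6.91 to 6.92). Normal cortex 3 stood above the other normal arrays in Esm1 at 6.47 (others 6.17 to 6.21).

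Of the 40 lists, 8 groups held such an array in the mean difference of the list from normal cortex. Tumor 1 stood below for astrocyte homeostatic at -3.09 (others -0.68 to -0.21) and activity-regulated immediate early at -1.38 (others -1.16 to -1.14). Tumor 2 stood below for monocyte and macrophage at 1.47 (others 2.20 to 2.29). Normal cortex 1 stood above for glutamate receptor and postsynaptic scaffold at 0.10 (others -0.042 to -0.019) and collagen and basement membrane at 0.049 (others -0.02 to -0.0089). Normal cortex 2 stood above for activity-regulated immediate early at 0.40 (others -0.15 to -0.11). Normal cortex 2 stood below for G1 cyclins, CDK inhibitors and RB family at -0.034 (others 0.0078 to 0.014). Normal cortex 3 stood below for MHC and antigen presentation at -0.17 (others 0.034 to 0.069).

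The difference between tumor and normal tissue itself differed between cortex and hippocampus, at a limma adjusted p under 0.05, in 22 of the named genes. Most of the 22 were named for being among the largest called region differences each way, so their number was largely fixed by that choice. Over all genes the share called was 0.838%. The tumor and normal difference was more positive in cortex for Ndst4 (3.76), Shisa6 (3.67), Syna (3.45), Npy2r (3.39), Cabp7 (3.21), Pcdh20 (3.07), Slc9a4 (3.01), Dsp (2.98), Lct (2.55), Fibcd1 (2.26) and Prox1 (2.11), on the log2 scale. Of these, Prox1, Lct and Fibcd1 are the hippocampal markers used for the tissue check. It was more negative in cortex for Dkkl1 (-2.25), Efna5 (-2.16), Cckbr (-2.15), Rasgef1b (-2.03), Myl4 (-1.99), Tmsb10 (-1.92), Igfbp6 (-1.89), Rxfp2 (-1.75), Pkm (-1.19), Atp5b (-0.90) and Aldoa (-0.72). The calls of Aldoa, Dsp, Tmsb10, Pkm and Atp5b were lost in 12 to 19 of 31 alternatives.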

How the results depend on the processing

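Among the 262 genes named, 183 kept their side of the threshold in the tumor and normal cortex comparison under each alternative run. Those of the 183 that were called also kept their direction. Many of the 262 were named for a small p or for calls in both fits, so this share does not stand for all genes. A change of sign was not counted for genes called in neither fit, and 2 genes changed sign with a call in either fit. Calls held throughout for 14 of 22 named genes for the region difference and for none of 11 for SYN1 tumors. Of 80 list counts, 38 stayed close to their main value. P2ry12 was called higher with array weights (0.52), and Atp5b gave 0.022 when tumor 1 was rescaled to the spread of the other tumors. Of 40 list medians, 37 moved by less than 1 SD of tumors. That SD took in tumor 1 and was wide for that reason, with a median over all genes of 0.32, against 0.17 in tumors 2 to 4. The homeostatic astrocyte median went from -1.11 to -0.32 without tumor 1 and still counted as unmoved. This measure therefore cannot show that the medians held without tumor 1. The causes were not tested. Leaving out 1 array of 8 gave 1341 to 1983 genes higher and 2635 to 4137 lower, the lowest count of losses being that without tumor 1. Counts were 2831 higher with quantile normalization, 3792 and 6818 lower with array weights, 1052 and 2316 at an adjusted p under 0.01, and 1065 and 1765 at 2-fold or more. Without tumor 1, alternatives chosen after seeing the data gave 4345 lower after centring, 3566 higher and 6088 lower with the 7 arrays alone, and 1245 higher and 1717 lower without normal cortex 1 as well.

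The difference from the hippocampus comparison gave 112 negative genes after centring, 633 positive and 1063 negative with array weights, 190 and 347 without the 4 arrays that stand apart, 61 and 24 at an adjusted p under 0.01, and 42 negative at 2-fold or more. Leaving out 1 of 19 arrays gave 67 to 169 positive and 35 to 128 negative. The comparison with SYN1 tumors moved most often, from 5 higher and 30 lower. It gave 14 and 114 after centring, 3 and 10 with quantile normalization, 2 and 11 with trend and robust settings, 3 and 1 with those 8 arrays alone, 1538 and 951 with array weights, 1549 and 1106 without the 4 arrays, 2 and 2 with tumor 1 rescaled, 0 and 1 at an adjusted p under 0.01, and 3 and 18 at 2-fold or more. Leaving out 1 array gave 0 to 900 higher and 1 to 232 lower.

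Whether the shared replicate numbers pair the arrays was not settled. The correlation of deviations was -0.166, -0.064, -0.211 and 0.057 for tumors and normal arrays of the same number, and -0.18 to 0.17 for unlike numbers. The deviations were taken from group means that include tumor 1, so these values cannot decide it. A replicate block gave 2413 higher and 4547 lower in cortex, 120 positive and 422 negative for the region difference, and 105 higher and 845 lower against SYN1. Signal over background was not measured here, so what it limits in the dimmest genes is unknown.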

Other observations

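Prm1, a protamine of sperm chromatin, was among the genes whose signal did not follow the tumor and normal labels alone. It was at 7.41, 9.67, 9.53 and 9.52 in GFAP cortex tumors 1 to 4, against 10.38, 10.24, 9.91 and 10.05 in normal cortex 1 to 4. The 4 SYN1 cortex tumors were at 6.97, 6.35, 5.91 and 6.60. Tumor 1 lay nearer to the SYN1 tumors than to GFAP tumors 2 to 4. This gene was chosen after its values were seen, and no test was made of it.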
